A study of Brachypodium distachyon with 45 samples.

Results

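The 32 loci described here are the annotated *Brachypodium distachyon* loci that were detected in leaves of the genotype ABR4 and were at or near 0 in leaves of ABR8 and KOZ1, in the groups used for the choice. They were chosen on measured values, in FPKM (the fragments assigned to a locus, scaled by transcript length and by the size of the library). A locus was taken when its lowest FPKM over 4 ABR4 groups (control at T0, T1 and T2, and drought at T2) was at least 2, and its highest FPKM over the corresponding 8 groups of ABR8 and KOZ1 was at most 0.2. The T1 drought groups had no part in the choice, and in ABR8 T1 drought all 32 loci were above 0.2 FPKM. Of the 33852 loci in the deposited table, 32837 carried a gene identifier, and 13120 of those passed the ABR4 limit and 9200 passed the ABR8 and KOZ1 limit. The same limits turned round gave 95 loci for ABR8 and 52 for KOZ1. The 32 loci carried 30 identifiers, because Bradi2g42790 and Bradi4g06556 each stood for 2 loci.

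ABR4, ABR8 and KOZ1 are natural genotypes which the study ranked as intermediate, tolerant and susceptible to drought. Water was withheld from 32 days after germination, and leaves were taken at day 0 (T0, watered control only), day 4 (T1) and day 8 (T2), with a drought and a watered control group at T1 and T2. Each of the 15 groups had 3 libraries, 1 plant each, and no plant carried a transgene or a chemical treatment. Drought and control were taken from the sample titles, since the treatment label went against the title in 15 of the 45 samples, namely 12 ABR8 samples at T1 and T2 and the 3 KOZ1 samples at T0, and in 0 of the ABR4 samples.

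Each deposited value is the authors' FPKM for a group, pooled over its 3 libraries, with lower and upper 95% limits from the authors' model. It therefore has no SD of its own. The table gives no read counts, and the coverage of the libraries was not analysed here. The product names of genes were not given in the sources used here, so the leaf tissue was not checked against leaf markers and no function is given to a member.

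*B. distachyon* is a temperate grass used as a model for cereals, and its natural lines differ in which genes they carry as well as in how strongly they express them. A gene present in some lines and missing or altered in others is called dispensable, and in plants such genes are often found among disease resistance and stress response families. RNA-seq reads of every line are aligned to the genome of the reference line Bd21, so a locus reads 0 when a line does not transcribe it, when it lacks the gene, or when its copy differs too much to align. These cases cannot be told apart from FPKM values.

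The chosen loci were moderately expressed in ABR4. Their mean over the 5 ABR4 groups ran between 2.04 and 25.6 FPKM with a median of 5.06, 4 of them were at 10 or more and 16 were under 5. In ABR8 and KOZ1, 190 of the 256 values that the rule used were listed at 0. There were 11 members at 0 in all 8 of those groups, 20 at 0 in all 5 KOZ1 groups, and 3 above 0 in all 8. These values chose the loci and are given as a description. The heatmap of the 15 groups shows the ABR4 block, and also a single column of ABR8 that does not match the other ABR8 columns.

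**Figure D1:**
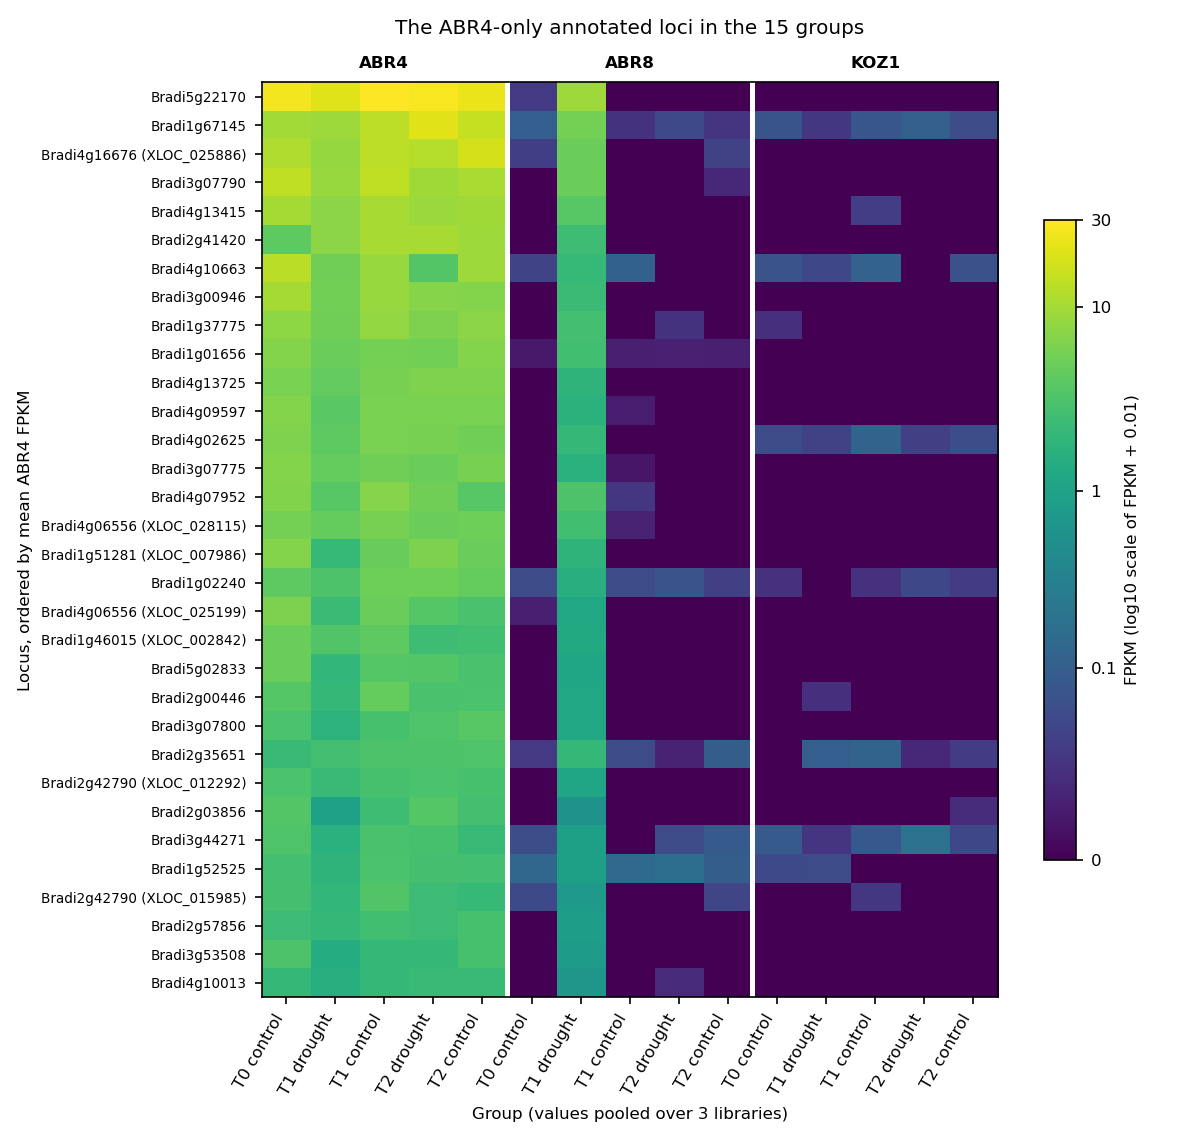
FPKM of the 32 ABR4-only loci (rows, ordered by mean ABR4 FPKM) in the 15 groups (columns; ABR4, ABR8 and KOZ1 from left to right), on a log10 scale of FPKM + 0.01. The ABR4 columns and the ABR8 T1 drought column are above 0.2 FPKM for every locus, and the other ABR8 and KOZ1 columns are at or near 0.

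The T1 drought groups of ABR4 and ABR8 stood apart from the rest, and this bears on every T1 drought value below. In ABR8 T1 drought all 32 loci were above 0.2 FPKM, between 0.595 and 9.26, while in the other 4 ABR8 groups none was above 0.173. The level in ABR8 T1 drought was 32.2% of that in ABR4 T1 control (median, range 22.0 to 63.3%). In ABR4 T1 drought all 32 loci were below ABR4 T1 control, at 65.8% of it (median, range 39.1 to 89.1%), and 27 were below each of the 4 other ABR4 groups. The sum of the ABR8 and ABR4 T1 drought values was 99.5% of ABR4 T1 control (median, range 62.9 to 147%).

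The mirror image was present in the 95 loci detected in ABR8 only. Their level in ABR4 T1 drought was 33.9% of ABR8 T1 control (median), and in ABR8 T1 drought it was 61.9%. The 52 loci detected in KOZ1 only stayed at 96.9% in KOZ1 T1 drought, and 40 of them were at 0 in ABR4 T1 drought and 42 at 0 in ABR8 T1 drought. A group value pools 3 libraries, so 1 library is 33.3% of a group. An exchange or mixing of libraries between the T1 drought groups of ABR4 and ABR8 was not tested, because the values are pooled.

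**Figure D2:**
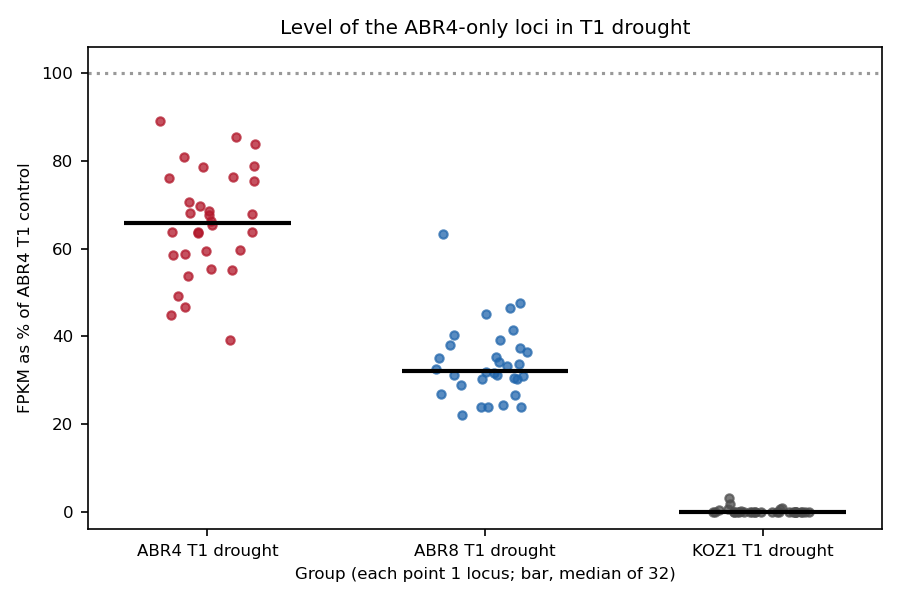
FPKM of each ABR4-only locus in the T1 drought groups of ABR4, ABR8 and KOZ1, as a percentage of its FPKM in ABR4 T1 control (points, 32 loci a group; bar, median; dotted line, 100%). The medians are 65.8% in ABR4, 32.2% in ABR8 and 0% in KOZ1.

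KOZ1 T1 drought, a group the rule had not used, held no such signal. There 25 of the 32 loci were at 0, the highest was Bradi2g35651 at 0.0998 FPKM, and all were at most 0.2. Set against KOZ1 T1 drought, 2 members were called higher in ABR4 T1 drought, where 0.627% of the 27117 loci tested were called higher. A call needed at least a 2-fold difference and an adjusted p of 0.05 or less in a z-test on the log of FPKM. The called members were Bradi4g02625, with 4.13 FPKM in ABR4 T1 drought and 0.0388 in KOZ1 T1 drought (log2 6.74, SE 1.65, 95% interval 3.51 to 9.96), and Bradi1g02240, with 3.24 FPKM in ABR4 T1 drought and listed at 0 in KOZ1 T1 drought. With unadjusted p, 16 members were called, against 2.88% of all loci. All 32 were higher in ABR4. The rule had chosen loci high in ABR4 and low in KOZ1 in the other groups, so these counts and their direction are no independent support.

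Set against ABR8 T1 drought, 0 of the 32 were called in ABR4 T1 drought, where 0.29% of the 26886 loci tested were called in either direction, and 0 without adjustment, where 2.04% were. The members were all higher in ABR4, with a median log2 difference of 0.98 and a range of 0.24 to 1.55, against a median of 0.00308 over all loci with a ratio. The rule had chosen loci high in ABR4 and low in ABR8 in the other groups, so this direction is no independent support. The authors' limits were wide in the T1 drought groups of ABR4 and ABR8. The standard error of a member was 0.498 of its value in ABR4 T1 drought and 0.510 in ABR8 T1 drought (medians), against 0.292 to 0.309 in the other ABR4 groups. Over all loci with at least 1 FPKM in a group, the medians were 0.223 to 0.232.

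Bradi5g22170 was the highest of the members (chromosome 5, 24769495 to 24805682, assembly v3.0). It had 27.8 FPKM in ABR4 T2 drought, and 26.0, 29.8 and 24.0 FPKM in the ABR4 controls at T0, T1 and T2. In ABR8 it had 0.0294 FPKM at T0 and was at 0 in the other groups of the rule, and in KOZ1 it was at 0 in all 5 groups. These 4 ABR4 values were within 1.24-fold of each other, and the limits of the T0 control value were 4.62 and 47.4 FPKM. In T1 drought it had 20.4 FPKM in ABR4 and 9.26 FPKM in ABR8. Its span of 36.2 kb is a merged one with the coordinates of other annotated loci, among them the locus of Bradi5g22146 and Bradi5g22179, which averaged 1.92 FPKM in ABR4, 3.97 in ABR8 and 4.32 in KOZ1, and Bradi5g22162, at 0.579, 0.783 and 4.97 FPKM in that order.

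Bradi1g67145 (chromosome 1, 66074395 to 66078028) was the second by mean level, and varied 2.13-fold over the 4 ABR4 groups of the rule. Its FPKM was 21.0 in ABR4 T2 drought, and 9.83, 13.6 and 14.98 in the ABR4 controls at T0, T1 and T2. It was among the 3 members above 0 in all 8 ABR8 and KOZ1 groups of the rule, with at most 0.102 FPKM there. It coincides with the RefSeq protein-coding gene LOC100835076.

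Bradi4g16676 (locus XLOC_025886, chromosome 4, 17547944 to 17557364) had 12.2 FPKM in ABR4 T2 drought, and 11.5, 13.4 and 17.6 FPKM in the ABR4 controls at T0, T1 and T2. RefSeq places a pseudogene, LOC104584973, over it. A further locus with the same identifier and coordinates averaged 1.11 FPKM in ABR4, against 0.0627 in ABR8 and 0.0318 in KOZ1, so both were higher in ABR4.

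Bradi3g07790 had 9.61 FPKM in ABR4 T2 drought, and 14.0, 13.7 and 10.9 FPKM in the ABR4 controls at T0, T1 and T2. It was at 0 in all KOZ1 groups and at most 0.0145 FPKM in the ABR8 groups of the rule. Bradi4g13415 (chromosome 4, 13762122 to 13763640) had 9.10 FPKM in ABR4 T2 drought, and 10.05, 10.6 and 9.62 FPKM in the ABR4 controls at T0, T1 and T2. Its ABR4 values lay close together, and its single value above 0 among the 8 ABR8 and KOZ1 groups of the rule was 0.0327 FPKM, in KOZ1 T1 control.

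Bradi2g41420 (chromosome 2, 41433791 to 41434231) is a short locus of 0.441 kb with no RefSeq gene. It had 10.6 FPKM in ABR4 T2 drought, and 4.06, 10.6 and 9.38 FPKM in the ABR4 controls at T0, T1 and T2, and it was at 0 in every ABR8 and KOZ1 group of the rule. The T0 value was the low one. The log2 difference of T1 control over T0 control was 1.38 (SE 0.84, 95% interval -0.26 to 3.02), which did not pass the test with or without adjustment.

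Bradi4g10663 (chromosome 4, 10396383 to 10397444), also without a RefSeq gene, had 3.46 FPKM in ABR4 T2 drought, and 13.2, 8.75 and 9.35 FPKM in the ABR4 controls at T0, T1 and T2. It varied 3.82-fold over these 4 groups, more than any other member. Its values in the ABR8 and KOZ1 groups of the rule were at most 0.116 FPKM.

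A further 5 loci completed the 12 with the highest mean. Bradi1g37775, with no RefSeq gene, had 6.10 FPKM in ABR4 T2 drought and 7.50 in T2 control. Bradi1g01656, which coincides with the protein-coding LOC104583394, had 5.40 FPKM in ABR4 T2 drought and 6.87 in T2 control. Bradi4g13725, with no RefSeq gene, had 6.46 FPKM in ABR4 T2 drought and 6.45 in T2 control. In each of these 3 the T2 groups lay inside each other's limits.

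The remaining pair of the 12 also lay in long merged loci. Bradi4g09597 had 5.91 FPKM in ABR4 T2 drought and 5.95 in T2 control, in a locus span of 257 kb. Among the other loci with these coordinates was Bradi4g09577, with a mean of 1.98 FPKM in ABR4. It was at 0 in the ABR8 and KOZ1 groups of the rule. Bradi4g09530, also there, averaged 1.03 FPKM in ABR4, 8.61 in ABR8 and 0.595 in KOZ1. Bradi3g00946 had 6.98 FPKM in ABR4 T2 drought and 6.77 in T2 control, and shared its 33.1 kb with the locus of Bradi3g00945 and Bradi3g00950, which averaged 36.4 FPKM in ABR4, 34.9 in ABR8 and 15.9 in KOZ1. Its limits in ABR4 T0 control were 0 and 24.2 FPKM. The table gives no strand, and how reads of overlapping loci were divided was not tested.

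The spread of each member over the ABR4 groups of the rule, which the rule used, is given as a description. The highest of the 4 values was 1.45 times the lowest (median), against 1.33 times over the 13120 annotated loci that passed the same ABR4 limit. It was 2-fold or more in 4 of the 32, and in 9.76% of the 13120. The 4 were Bradi4g10663, Bradi2g41420, Bradi1g67145 and Bradi4g06556 (XLOC_025199).

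Drought at T2, the ABR4 comparison clear of the T1 drought groups, changed 0 of the 32 loci by the test, where 0.0698% of 25772 loci were called in either direction. The rule limited these values to at least 2 FPKM in both groups. The median log2 change of the members was -0.00039, against 0.03 over all loci with a ratio, with 16 members above 0 and 16 below. The lowest change was that of Bradi4g10663, with 3.46 FPKM in ABR4 T2 drought and 9.35 FPKM in T2 control, a log2 change of -1.43 (SE 0.62, 95% interval -2.66 to -0.21). It did not pass the adjusted test and was the single member called without adjustment, where 0.551% of all loci were called lower.

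Next lowest were Bradi4g16676 (XLOC_025886), with 12.2 FPKM in ABR4 T2 drought and 17.6 in T2 control, and Bradi3g53508, with 2.07 and 2.88. Highest in the other direction were Bradi4g07952, with 5.27 FPKM in ABR4 T2 drought and 3.72 in T2 control (log2 0.50, SE 0.44), Bradi1g67145 with 21.0 and 14.98 (log2 0.48, SE 0.39), and Bradi2g03856 with 3.63 and 2.82 (log2 0.37, SE 0.56). None of these 5 passed the test even without adjustment. For 5 of the 32 members the 95% interval of the drought change lay within 2-fold either way, so that a change of that size was outside it. For the others the limits left room for a 2-fold change.

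**Figure D3:**
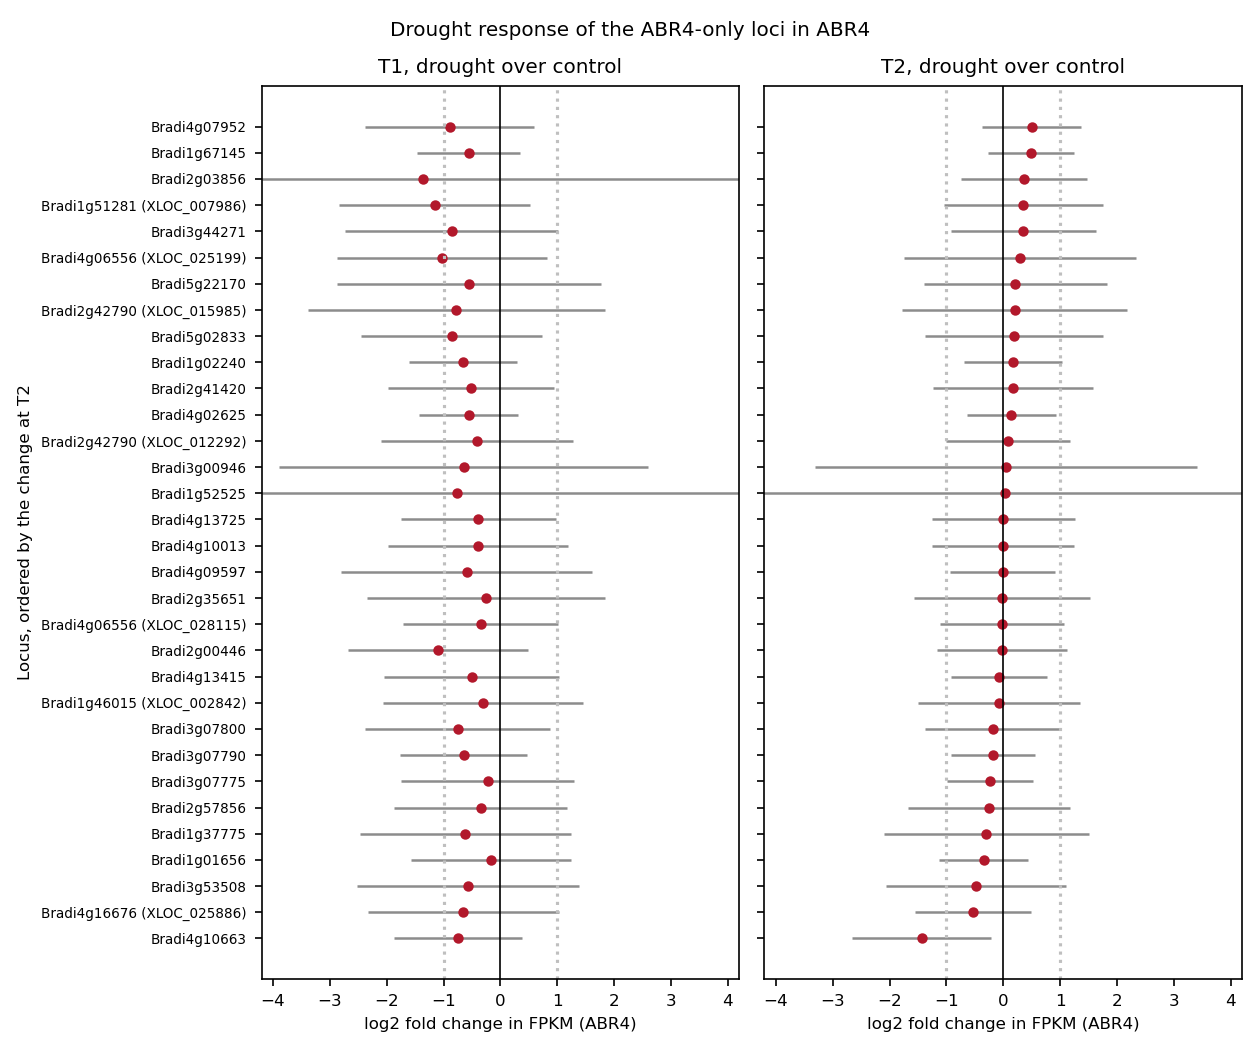
Log2 fold change of ABR4 drought over ABR4 control for the 32 loci at T1 (left) and T2 (right), ordered by the change at T2 (points; lines, 95% intervals from the authors' limits; dotted lines, 2-fold). At T1 all 32 points lie below 0 and at T2 they lie on both sides; the intervals of 2 loci at T1 and 1 at T2 run past the axis.

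At T1, drought gave 0 calls among the 32 after adjustment, where 0.234% of 26550 loci were called in either direction. Without adjustment it also gave 0, where 1.66% were called. All 32 were lower in drought than in control, with a median log2 change of -0.60, against 0.01 over all loci with a ratio. The rule held T1 control, but not T1 drought, to at least 2 FPKM. The changes ran as low as -1.36 in Bradi2g03856 (0.977 FPKM in T1 drought, 2.50 in T1 control), -1.16 in Bradi1g51281 (2.11 and 4.71) and -1.10 in Bradi2g00446 (2.08 and 4.44). Nearest to no change were Bradi1g01656 at -0.17 (5.02 and 5.64), Bradi3g07775 at -0.23 (4.50 and 5.26) and Bradi2g35651 at -0.25 (2.71 and 3.23). Whether drought or the make-up of the T1 drought group went with this lower level cannot be told apart.

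The drought change was higher at T2 than at T1 in 29 of the 32, with a median difference of 0.58 on the log2 scale. The median change was -0.60 at T1 and -0.00039 at T2. This difference therefore takes in the T1 drought values of ABR4, for which drought and the make-up of the group cannot be told apart. None of the members passed the test of that difference, with or without adjustment, and 3 of the 22806 loci tested (0.0132%) did after adjustment.

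With leaf age there was no call among the members, whose control values the rule held to at least 2 FPKM at T0, T1 and T2. T1 control over T0 control gave 0 of 32, where 0.285% of 26010 loci were called, with a median log2 change of -0.03. T2 control over T0 control gave 0 of 32, where 1.25% of 25913 loci were called, with a median of -0.15 against -0.03 over all loci. Both counts were also 0 without adjustment, where 1.45% and 3.44% of all loci were called in turn. In Bradi4g07952, the member with the lowest p in the T2 control comparison, FPKM was 3.72 in T2 control and 6.53 in T0 control. Its log2 change of -0.81 (SE 0.43) was also under the 2-fold limit of a call.

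The limits of the rule cut through a continuous range. Just inside the ABR4 limit were Bradi4g10013, Bradi3g53508 and Bradi2g42790 (XLOC_015985), with lowest ABR4 values of 2.04, 2.07 and 2.12 FPKM. Just outside it were Bradi4g07954, Bradi1g55970 and Bradi4g09577 at 1.99, 1.89 and 1.76 FPKM, all at 0 in the ABR8 and KOZ1 groups of the rule. Just inside the other limit were Bradi3g44271, Bradi1g52525 and Bradi4g02625. Their highest values in the ABR8 and KOZ1 groups of the rule were 0.193, 0.173 and 0.118 FPKM. Just outside that limit were Bradi1g50670, Bradi2g17465 and Bradi1g30860 at 0.221, 0.264 and 0.337 FPKM. Bradi1g52525 is the least certain of those inside, since it shared its span with Bradi1g52510 at 61.4 FPKM and Bradi1g52520 at 17.0 FPKM in ABR4, and its limits in ABR4 T0 control were 0 and 14.2 FPKM.

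The members were spread over all 5 chromosomes. Chromosome 4 held 10 of the 32 (31.2%, against 16.9% of all annotated loci), chromosomes 1 and 2 held 7 each (21.9%, against 29.0% and 22.2%), chromosome 3 held 6 (18.8%, against 22.1%), and chromosome 5 held 2 (6.25%, against 9.71%). These shares are counts over few loci and were not tested. There were 7 members within 100 kb of another. They made up a group of 3 on chromosome 3 and the 2 pairs of loci that share an identifier and coordinates.

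The group on chromosome 3 comprised Bradi3g07775 (5900661 to 5909020), Bradi3g07790 (5964045 to 5973766) and Bradi3g07800 (5982575 to 5988714), over 88.1 kb. Bradi3g07775 averaged 5.72 FPKM in ABR4, 0.00152 in ABR8 and 0 in KOZ1 (mean of the 4 groups of the rule). Bradi3g07790 averaged 12.1 FPKM in ABR4, 0.00364 in ABR8 and 0 in KOZ1. Bradi3g07800 averaged 3.28 FPKM in ABR4 and was at 0 in every ABR8 and KOZ1 group of the rule.

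Each of these 3 coincides with a RefSeq protein-coding gene, LOC100835112, LOC100836035 and LOC100836344 in turn. The span held 3 further annotated loci, all at 0 in the ABR8 and KOZ1 groups of the rule. Bradi3g07778, at 0.271 FPKM in ABR4, had the coordinates of Bradi3g07775 and may share its reads, and Bradi3g07781 and Bradi3g07785, which lay between members, were at 0 in ABR4 as well. Just before it, Bradi3g07770 averaged 5.47 FPKM in ABR4, 1.44 in ABR8 and 11.6 in KOZ1. Beyond it, XLOC_024688 (5996695 to 5997530), a locus without an identifier, had the opposite pattern. It averaged 0.0474 FPKM in ABR4, 5.88 in ABR8 and 3.68 in KOZ1. Farther on, Bradi3g07830 averaged 26.2 FPKM in ABR4, 33.8 in ABR8 and 43.9 in KOZ1, and was expressed in all 3 genotypes.

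**Figure D4:**
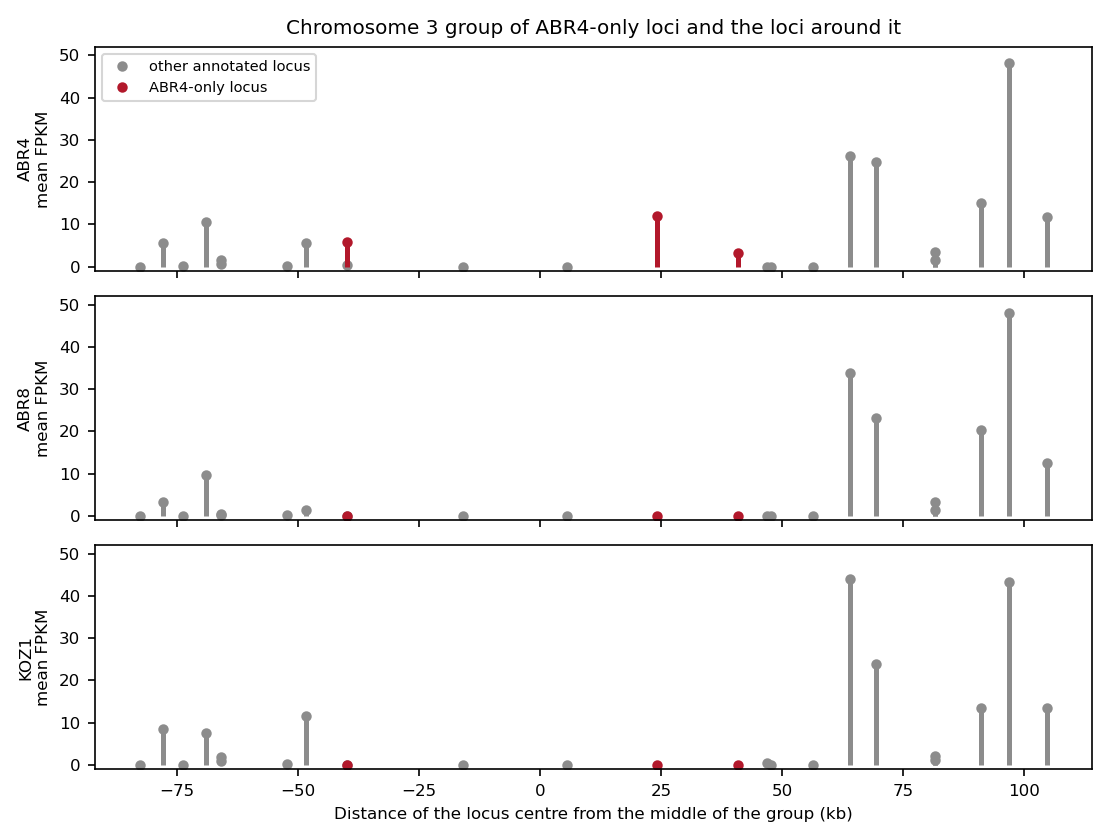
Mean FPKM (4 groups of the rule) of the annotated loci around the chromosome 3 group, in ABR4, ABR8 and KOZ1 from top to bottom, by distance of the locus centre from the middle of the group in kb (red, ABR4-only loci; grey, other loci). The 3 red loci have 5.72, 12.1 and 3.28 FPKM in ABR4 and are at or near 0 in ABR8 and KOZ1, while of the grey loci farther out some, such as Bradi3g07830, are expressed in all 3 genotypes and others are near 0 in all 3.

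Of the loci that share an identifier, the 2 loci of Bradi2g42790 (chromosome 2, 42985843 to 42998895) averaged 3.01 and 2.69 FPKM in ABR4. In the ABR8 groups of the rule they averaged 0 and 0.0227, and in the KOZ1 groups of the rule 0 and 0.00656. The 2 loci of Bradi4g06556 (chromosome 4, 5510958 to 5515385) averaged 5.38 and 4.42 FPKM in ABR4. In the groups of the rule they averaged at most 0.00304 in ABR8 and 0 in KOZ1. Since the 2 loci of a pair have the same coordinates and may share reads, they are not independent examples.

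The nearest annotated locus on either side of each member was compared between genotypes at T0, to ask whether the pattern ran on into the surroundings. There were 58 such loci that were not members themselves, with a median gap of 3.33 kb (0.135 to 35.1 kb). Against ABR8, 2 of the 35 that could be tested were called higher in ABR4 and 1 lower, where 1.43% of all loci tested were called higher and 2.63% lower. Against KOZ1, 2 of 35 were called higher and 2 lower, where 0.714% of all loci were called higher and 1.37% lower. The neighbours were mostly low everywhere, with 36 of the 58 under 1 FPKM in all 3 genotypes (62.1%, against 44.7% of the other annotated loci), and 15 at 1 FPKM or more in all 3 (25.9%, against 45.6%).

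**Figure D5:**
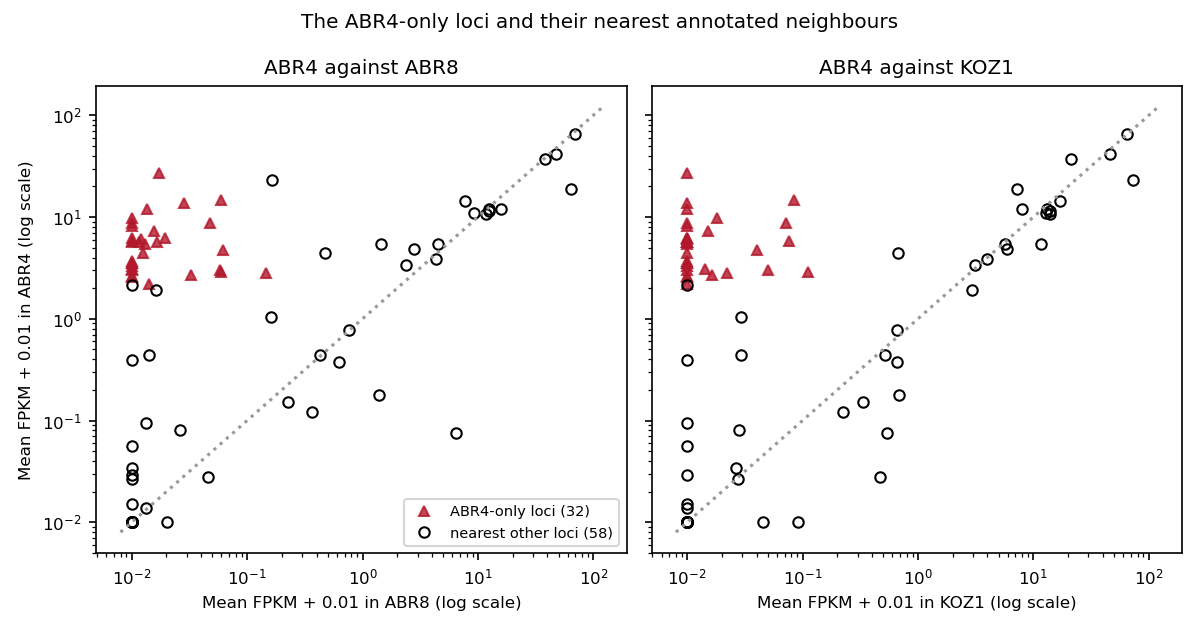
Mean FPKM + 0.01 (4 groups of the rule, log scales) in ABR4 against ABR8 (left) and against KOZ1 (right), for the 32 ABR4-only loci (red triangles) and the 58 nearest other annotated loci, overlapping ones passed over (open circles; dotted line, equal levels). The ABR4-only loci lie at the upper left by the rule, and of the neighbours 3 are at 1 FPKM or more in ABR4 only.

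Those 3 neighbours at 1 FPKM or more in ABR4 alone were 5.17% of the 58, against 0.808% of the other annotated loci. Bradi4g07954, next to Bradi4g07952, averaged 2.15 FPKM in ABR4 and was at 0 in the ABR8 and KOZ1 groups of the rule. It missed the ABR4 limit of the rule by 1 group value of 1.99. The other 2 flanked Bradi2g42790 on each side. Bradi2g42800 averaged 4.41 FPKM in ABR4, 0.463 in ABR8 and 0.659 in KOZ1, and was called higher in ABR4 at T0 than in ABR8 (log2 2.72) and in KOZ1 (log2 3.30), while Bradi2g42767 averaged 1.04, 0.151 and 0.0192 FPKM in that order and was not called.

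Other neighbours had patterns of their own. Bradi1g01660, beside Bradi1g01656, had 31.1 FPKM in ABR4 at T0, against 0.315 in ABR8 and 74.0 in KOZ1, so it was called higher than in ABR8 (log2 6.63) and lower than in KOZ1 (log2 -1.25). Bradi3g07770, beside Bradi3g07775, had 3.44 FPKM in ABR4 at T0 and 0.343 in KOZ1, and was called higher (log2 3.33), although its mean over the 4 groups was higher in KOZ1. At T2 control the call against KOZ1 was made for 1 neighbour in place of 2, where 0.81% of all loci were called higher. Bradi1g51270, beside Bradi1g51281, had 0.185 FPKM in ABR4 at T0, against 2.60 in ABR8 and 2.36 in KOZ1, and was called lower than both (log2 -3.81 and -3.67).

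In some places the member stood alone between evenly expressed genes. Bradi4g13725 lay within 0.380 kb of both its neighbours, and Bradi4g13720 averaged 11.4 FPKM in ABR4, 12.4 in ABR8 and 13.9 in KOZ1, with Bradi4g13730 at 12.1, 15.8 and 13.1 in the same order. Bradi1g37775 lay between Bradi1g37770, at 11.97 FPKM in ABR4, 12.4 in ABR8 and 8.02 in KOZ1, and Bradi1g37780, at 10.6, 11.8 and 14.0. None of these 4 neighbours was called between genotypes.

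The annotation of the members is described by counts, with no test. By coordinates on the same assembly, 17 of the 32 overlapped at least 1 RefSeq protein-coding gene (53.1%), against 78.3% of all annotated loci placed and 95.3% of those that passed the ABR4 limit. RefSeq had a pseudogene but no protein-coding gene at 3 (9.38%, against 0.869% of those that passed the ABR4 limit), only non-coding RNA at 4 (12.5%, against 2.52%), and nothing at 8 (25%, against 1.33%). Any overlap counted, so in long merged spans, such as those of Bradi4g09597, Bradi3g00946 and Bradi2g03856, the coding gene may belong to another locus. Both loci of Bradi2g42790 and both of Bradi4g06556 were counted, although the loci of each pair share coordinates. As a check of the coordinates, 129 of 131 known pairs of identifier and RefSeq symbol overlapped. Among the 4 non-coding ones, Bradi1g46015 overlapped the long non-coding RNA LOC104581614 and the microRNA gene MIR5172.

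The identifiers of the members were counted in the same way. Genes were first numbered along each chromosome with identifiers ending in 0, and identifiers with other endings were fitted in between. Of the 32 members 25 did not end in 0 (78.1%), against 43.8% of all loci with 1 identifier and 22.1% of those that passed the ABR4 limit. The ABR8-only and KOZ1-only loci had 71.4% and 77.1%, given in the same order. A locus span had a median of 4.65 kb in the members and of 4.89 kb in the loci that passed the ABR4 limit.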

How the data were processed

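Leaf RNA of 3 genotypes was sequenced in 15 groups of 3 libraries. The authors used Trim Galore 0.4.1 for trimming, TopHat2 2.1.1 with Bowtie2 2.2.9 for mapping to assembly v3.0 and annotation v3.1, and Cufflinks 2.2.1 with Cuffdiff for quantification. The deposited FPKM values are per locus and group, normalized and pooled by the authors over 3 libraries, with 95% limits. Counts per library were not used here, so each p-value rests on the authors' modelled spread.

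The standard error of a value was taken as the distance to its upper limit divided by 1.96. Groups were compared by a z-test on the log of FPKM, with no pseudocount and no filter on low values, or on the difference where a group was at 0. Values of p were adjusted by the Benjamini-Hochberg method over all loci tested in a comparison, and loci with an adjusted p of 0.05 or less that changed 2-fold were called. The p-values serve for calls only and are not printed, since pooled values allow no exact test over 3 libraries. Tested on simulated data with known changes, this test missed more of the 4-fold changes than it called. A locus without a call is therefore not shown to be unchanged. The simulation took its errors from the loci above 0 in ABR4 T2 control, so it does not give the rate of missed changes among the members. Python 3.11.15, numpy 2.4.6, scipy 1.17.1, pandas 2.3.3 and statsmodels 0.14.6 were used. Starts were moved to counting from 1, and RefSeq genes were matched by position.

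The members, lists and tests were chosen with earlier results of these data known. The named genes were the 12 members with the highest mean over the 5 ABR4 groups, the 3 highest and 3 lowest changes in drought at T1 and T2, members called in drought, members next to another, and the 3 loci just inside and just outside each limit. Further members and neighbours were chosen after their values were seen. Lists of leaf markers, drought markers and functional groups rested on product names, which the reference table used does not hold, and were not run.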

Additional observations from a re-analysis of the deposited data

How the results depend on the processing

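No paired analysis was possible because the values are pooled over the libraries of a group and carry no replicate numbers, and no library could be left out for the same reason. The number of ABR4-only loci was 51 with a lowest ABR4 value of 1 FPKM and 12 with a lowest value of 5 FPKM, against 32. It was 0 with the T1 drought groups of all 3 genotypes under the same limits, because every member was above 0.2 FPKM in ABR8 T1 drought, and 24 with the T1 drought groups of ABR4 and KOZ1 alone added. Without adjustment of p, 1 member was called in ABR4 T2 drought against T2 control, in place of 0. The share of all loci called there was 0.951%. In ABR4 T1 drought against KOZ1 T1 drought, 16 were called in place of 2, where 2.88% of all loci were called higher. By 95% limits that do not overlap, 17 members were called in that comparison, where 3.83% of all loci were called. The rule had chosen loci high in ABR4 and low in KOZ1, so these counts are no independent support. Neighbours called higher in ABR4 without adjustment were 5 against ABR8 and 4 against KOZ1, in place of 2 each. Of all loci, 3.67% and 2.35% were. At T2 control, 1 neighbour was called higher in ABR4 than in KOZ1, where 0.81% of all loci were. The number of 24 and the rest of the 91 values that did not move stayed within 1.5 times the reported count or within the error of the reported median. The precision of the T1 comparisons is limited by wide limits in the T1 drought groups of ABR4 and ABR8.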

Other observations

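The same limits were met in ABR4 by 33 of the 1015 loci without a gene identifier (3.25%), and by 0.0975% of the annotated loci. These shares have unlike bases and do not measure an enrichment. Annotated loci are listed whether expressed or not, while loci without an identifier were assembled from the reads. The loci without an identifier that met the limits numbered 110 in ABR8 and 22 in KOZ1. The highest of those in ABR4 was XLOC_024748 (chromosome 3, 35074091 to 35074218), with a mean of 130.1 FPKM over the 4 groups, above every annotated member. The pair XLOC_028321 and XLOC_028320 on chromosome 4, which share coordinates (9077908 to 9150863), averaged 63.8 and 45.2 FPKM and lay 39.1 kb from Bradi4g09597.

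The level of these unannotated loci in ABR8 T1 drought was 34.2% of that in ABR4 T1 control (median of 33, range 15.9 to 77.5%). The make-up of the T1 drought groups was not tested.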
